A study of Rattus norvegicus with 6 samples.

Results

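Connexins and pannexins were examined in the vestibular sensory epithelia of rats exposed to a compound toxic to hair cells (HCs). The group was set by name and held 8 genes of the 32883 in the count table: the connexin genes Gja1, Gjb1, Gjb2, Gjb6, Gjc1 and Gjc3, and the pannexin genes Panx1 and Panx2. All 8 were measured and all 8 passed the filter on low counts that 14352 genes passed.

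Connexins assemble in the plasma membrane as hemichannels, and hemichannels of adjacent cells dock to form gap junctions that pass ions and small metabolites. Gjb2 and Gjb6 encode connexin 26 and connexin 30, the main gap junction proteins of the inner ear, which couple supporting cells to one another and fibrocytes to one another and are both known as deafness genes. HCs are not coupled by them. Pannexins are related in topology, rarely form junctions, and act as large-pore channels of single membranes, Panx1 being a well known route of ATP release.

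The 6 libraries came from adult male Long-Evans rats and formed 2 groups of 3. Animals of the IDPN-4wk group drank water with 20 mM 3,3'-iminodipropionitrile (IDPN) for 4 weeks and were killed on the last day of exposure, and control animals drank water without it. Each library pooled the utricles and cristae of 1 animal, so it held HCs, supporting cells, transitional and dark cells, nerve endings, glia, stroma and vessels together. The rats carried no transgene and the libraries kept no strand. Bulk RNA of this kind cannot tell fewer cells of a type from less RNA per cell. For HCs, the study counted cells in other rats of this exposure and calculated that a small share at most was lost here.

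Total counts ran from 13358678 to 18561991 per library, and the correlation of log2 levels was 0.980 to 0.983 within a group and 0.953 to 0.966 between groups. Markers of the labelled tissue were present, and no marker list had a gene at 0 in all libraries. Summed HC markers lay at 2048 to 2216 CPM (counts scaled to the same library size) in controls and at 957 to 1306 CPM in IDPN-4wk, and 6 of 10 HC genes were called lower. A gene was called at an adjusted p (Padj, Benjamini-Hochberg over all tested genes, edgeR quasi-likelihood test) under 0.05 with a fold change over 1.5, which is 0.58 on the log2 scale. By that rule 950 genes were lower and 444 higher in IDPN-4wk.

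Gjb2 and Gjb6 lie next to each other on chromosome 15 in GRCr8, both on the minus strand, and were the connexin genes with the most counts in every library. The 250 bases upstream of each RefSeq start are printed so that both neighbours can be compared, with capitals marking matches on either strand to the GC box (GGGCGG), the TATA box (TATAAA), the CCAAT box (CCAAT) and the element TTAAAA, which was added to the search after the letters had been seen. The Gjb2 window is chr15:35381954-35382203, and the Gjb6 window, at the more upstream of 2 annotated starts, is chr15:35410139-35410388.
Gjb2: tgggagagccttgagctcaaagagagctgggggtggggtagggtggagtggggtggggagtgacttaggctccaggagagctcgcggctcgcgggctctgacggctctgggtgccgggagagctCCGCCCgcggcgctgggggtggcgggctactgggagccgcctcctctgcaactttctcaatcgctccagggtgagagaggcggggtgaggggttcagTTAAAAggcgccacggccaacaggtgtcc
Gjb6: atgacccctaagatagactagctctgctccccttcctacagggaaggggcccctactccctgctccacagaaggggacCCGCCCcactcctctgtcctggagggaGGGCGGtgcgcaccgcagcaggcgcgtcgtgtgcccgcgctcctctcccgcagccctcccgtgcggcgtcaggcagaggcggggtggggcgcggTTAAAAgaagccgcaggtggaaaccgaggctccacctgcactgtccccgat
Both windows were rich in G and C, at 67.2% for Gjb2 and 68.0% for Gjb6, against a median of 51.2% over 33469 RefSeq rat promoter windows of the same length. Gjb2 held 1 GC box and Gjb6 held 2, and 30.5% of all windows held at least 1. Each carried a single TTAAAA, 29 bases before the Gjb2 start and 51 bases before the Gjb6 start, a match found in 19% of windows. Neither held TATAAA (12.9% of windows) or CCAAT (34.0%), which says only that these letters are not in these 250 bases. The window at the other Gjb6 start, chr15:35408963-35409212, differed: it had 51.2% G and C, 1 GC box and no TTAAAA.

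Of the 8 genes, Gjb6 was downregulated in IDPN-4wk. Its level was 1514, 1704 and 1645 CPM in the 3 control rats and 885, 842 and 946 CPM in the 3 exposed rats. Every exposed library lay far below every control, and the spread within each group was narrow. The means were 1621 ± 97.4 and 891 ± 52.2 CPM (SD, n = 3 each), which left Gjb6 at 55.0% of control. The log2-Fold change was -0.86 (SE 0.08, 95% interval -1.03 to -0.69), with an edgeR Padj of 5.18e-05, the 78th smallest p of all tested genes.

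Gjb2, the partner with which Gjb6 shares channels, stood lower by less. Controls were at 896, 943 and 950 CPM and exposed rats at 826, 700 and 682 CPM. The groups did not overlap, although the first exposed rat came close to the controls. The means were 930 ± 29.4 and 736 ± 78.2 CPM (SD, n = 3 each), and the log2-Fold change was -0.34 (SE 0.08, 95% interval -0.52 to -0.15) with an edgeR Padj of 0.0182. Gjb2 passed the adjusted p but not the fold threshold, so it was not called. Without control rat 2, control rat 3 or exposed rat 2 its Padj was 0.0530, 0.0701 and 0.0608, and with library size as the only scaling it was 0.0711.

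**Figure D1:**
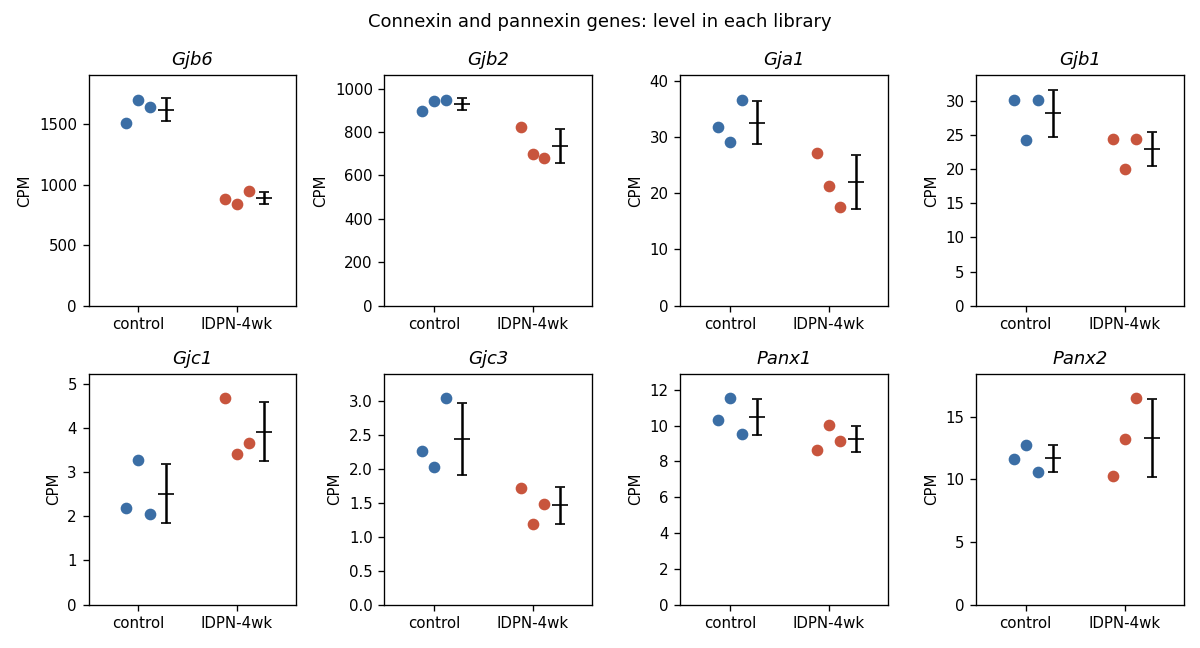
Level of each connexin and pannexin gene in CPM (linear axes from 0) in the 3 control (blue) and 3 IDPN-4wk (red) libraries, with the group mean and SD as black bars. Gjb6 runs from 1514 to 1704 CPM in controls and from 842 to 946 CPM in exposed rats, while the points of Gjb1, Panx1 and Panx2 overlap between groups.

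The difference between the neighbours was also measured within each library, where scaling plays no part. There were 1.69, 1.81 and 1.73 Gjb6 counts for each Gjb2 count in controls, and 1.07, 1.20 and 1.39 in exposed rats. All exposed ratios lay below all control ratios. The mean ratio was 1.74 ± 0.0593 in controls and 1.22 ± 0.158 in IDPN-4wk (SD, n = 3 each), a log2 difference of -0.52. An exact two-sided permutation test gave p = 0.1, the smallest that 3 against 3 animals allows. Transcript length was not used, so the ratio within one library does not rank the abundance of the transcripts, and only its difference between libraries is read.

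All 19 connexin genes of the table summed to 2487, 2715 and 2677 CPM in controls and to 1779, 1599 and 1688 CPM in IDPN-4wk. The sum was lower in each exposed rat than in any control, by a log2 difference of -0.64 (exact two-sided permutation p = 0.1, the smallest possible). Gjb2 and Gjb6 together held 96.9% to 97.5% of these connexin counts in controls and 96.2% to 96.4% in exposed rats, so the sum follows this pair. Of all connexin counts, the Gjb6 share was 60.9%, 62.8% and 61.5% in controls against 49.8%, 52.7% and 56.0% in exposed rats. The Gjb2 share was correspondingly larger after exposure, at 40.4% to 46.4% against 34.7% to 36.0%. As a share of all counts, connexins went from 0.240% to 0.259% in controls to 0.167% to 0.185% in exposed rats.

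**Figure D2:**
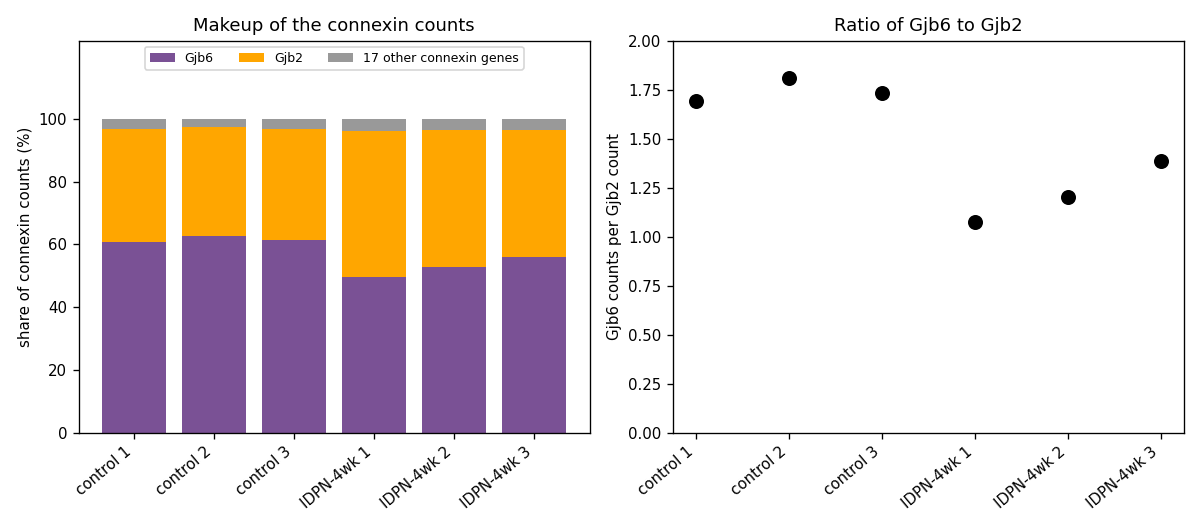
Left, share of the summed connexin counts (%) held by Gjb6, Gjb2 and the 17 other connexin genes in each of the 6 libraries; right, Gjb6 counts per Gjb2 count in the same libraries, on an axis from 0. The ratio lies at 1.69 to 1.81 in controls and at 1.07 to 1.39 in IDPN-4wk.

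Of the markers of cells that use these connexins, 3 of 9 supporting cell genes and 1 of 4 fibrocyte genes were called lower, and the lower sums were carried by Otog and Coch. Summed supporting cell markers ran from 8272 to 9143 CPM in controls and from 4418 to 5671 CPM in IDPN-4wk, 57.6% of control. Most of that sum was Otog, which encodes otogelin of the overlying acellular membranes, at 6258 ± 363 and 3197 ± 561 CPM (SD, n = 3 each; log2-Fold change -0.97). Otogl (-0.89) and Tectb (-0.88), which also encode proteins of those membranes, were the other supporting cell genes called lower, while the glutamate transporter gene Slc1a3 (-0.33) was not called. Of the 9 genes, 7 had a negative and 2 a positive log2-Fold change. Not called were Lfng (-0.52), Sox2 (-0.27) and Jag1 (-0.04) among the negative ones, and the positive ones, Sox9 (0.24) and Hes1 (0.36). Summed fibrocyte markers ran from 19851 to 23053 CPM and from 15553 to 18503 CPM, with Otos called lower (-0.82) and Coch not (-0.32). Coch made up most of that sum, at 20503 CPM of 21295 CPM in controls. Tbx18, a fibrocyte transcription factor gene, was higher without overlap (log2-Fold change 0.23, edgeR Padj 0.0494) and was below the fold threshold, while Pou3f4, also a transcription factor gene, was at 46.3 CPM in controls and 36.5 CPM in exposed rats without overlap (-0.34) and was not called. Dark cell markers (6 genes, median -0.56), of the cells that secrete potassium into endolymph, summed to 602 to 762 CPM and 314 to 418 CPM, with Kcnq1 (-1.87) and Slc12a2 (-1.06) called lower, and Kcne1 called lower by DESeq2 alone (-0.68 there). The part of these cell types in the Gjb6 and Gjb2 differences was not tested.

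Both connexins were also set against these sums, in a comparison chosen after the values were seen and given without a test. Gjb6 amounted to 18.3%, 18.6% and 19.7% of summed supporting cell markers, which are mostly Otog, in controls and to 18.6%, 19.1% and 16.7% in exposed rats, so the groups overlapped. For Gjb2 the same share was 10.8%, 10.3% and 11.4% in controls and 17.4%, 15.8% and 12.0% in exposed rats, higher in every exposed rat. The result depended on the supporting cell gene. Against Slc1a3 the ratio of Gjb6 was 1.82 ± 0.151 in controls and 1.26 ± 0.0413 in exposed rats, without overlap, and that of Gjb2 was 1.05 ± 0.0690 and 1.04 ± 0.166, with overlapping groups (SD, n = 3 each). Against summed fibrocyte markers, which are mostly Coch, Gjb6 lay at 7.66% ± 0.950 in controls and 5.26% ± 0.151 in IDPN-4wk, and Gjb2 at 4.39% ± 0.459 and 4.36% ± 0.620 (SD, n = 3 each). It depended on the fibrocyte gene as well. Against Otos the ratio of Gjb6 was 2.70 ± 0.199 in controls and 2.62 ± 0.226 in exposed rats, with overlapping groups, and that of Gjb2 was 1.55 ± 0.0703 and 2.18 ± 0.435, higher in every exposed rat (SD, n = 3 each).

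**Figure D3:**
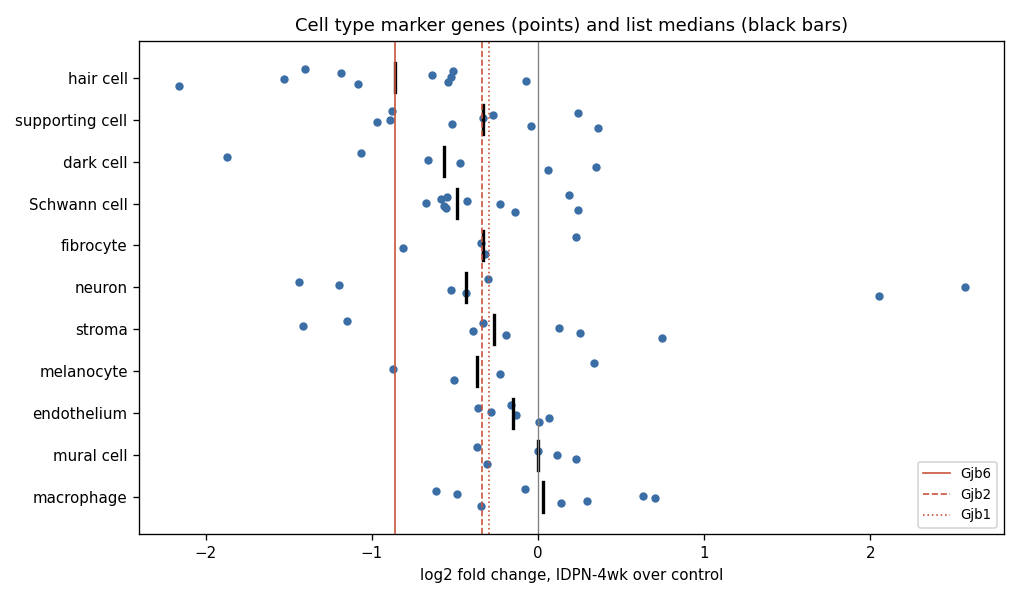
Log2-Fold change (IDPN-4wk over control) of each tested marker gene (points) by cell type list, with the list median as a black bar and Gjb6, Gjb2 and Gjb1 as vertical lines. The Gjb6 line, at -0.86, meets the median of the HC list (-0.86), whose genes spread from -2.16 to -0.07. The Gjb2 line, at -0.34, lies near the medians of the supporting cell (-0.33) and fibrocyte (-0.33) lists. Supporting cell genes spread from -0.97 to 0.36, with Otog, Otogl and Tectb near the Gjb6 line. Fibrocyte genes spread from -0.82 to 0.23.

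Gja1 encodes connexin 43, the most widely expressed connexin of the body, found in fibroblasts, glia and many epithelia. It was at 31.7, 29.1 and 36.6 CPM in controls and at 27.1, 21.2 and 17.6 CPM in exposed rats. The groups did not overlap, but the lowest control and the highest exposed rat were close. The means were 32.5 ± 3.82 and 22.0 ± 4.77 CPM (SD, n = 3 each), with a log2-Fold change of -0.57 (SE 0.16, 95% interval -0.91 to -0.22) and an edgeR Padj of 0.0284. Gja1 thus lay just inside the fold threshold and was not called. Its call turned on single animals: it was called without control rat 2 (-0.64, Padj 0.0415) and without exposed rat 1 (-0.75, Padj 0.0114). Its Padj passed 0.05 without control rat 1 (0.0566), control rat 3 (0.110), exposed rat 2 (0.0785) or exposed rat 3 (0.0625), and with library size alone (0.0563).

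Gjb1 and Gjc3 encode connexin 32 and connexin 29, both found in myelinating Schwann cells. Gjb1 was at 30.2, 24.2 and 30.1 CPM in controls and 24.4, 20.0 and 24.4 CPM in IDPN-4wk. The lowest control lay among the exposed rats. Its log2-Fold change of -0.30 (SE 0.13, 95% interval -0.59 to -0.01) did not pass (edgeR Padj 0.136). Gjc3 was at 2.26, 2.03 and 3.04 CPM in controls and 1.72, 1.19 and 1.48 CPM in exposed rats. These groups did not overlap, but they rested on 29 to 43 counts per control library and 23 to 24 per exposed library. The log2-Fold change of Gjc3 was -0.74 (SE 0.34, 95% interval -1.49 to 0.00), with an edgeR Padj of 0.154.

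Of 10 Schwann cell markers, 8 had a negative log2-Fold change (median -0.49). Their sum ran from 8542 to 10797 CPM in controls and from 5844 to 8747 CPM in exposed rats, 77.6% of control, and the groups overlapped. Pmp22 (-0.59) and Ncmap (-0.68), both genes of peripheral myelin, were called lower, and the myelin gene Mbp (-0.57) was not. Relative to this sum the log2 difference of Gjb1 was 0.09 (exact two-sided permutation p = 0.7) and that of Gjc3 was -0.35 (exact p = 0.2), where 0.1 is the smallest p possible. Neither ratio separated the exposed from the control rats.

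Gjc1, which encodes connexin 45 of vascular muscle and some neurons, had the largest positive log2-Fold change of the 8. It was at 2.19, 3.28 and 2.05 CPM in controls and at 4.67, 3.40 and 3.67 CPM in IDPN-4wk, on 29 to 66 counts per library. Each exposed rat was above each control, the closest pair by little. The log2-Fold change was 0.64 (SE 0.29, 95% interval -0.01 to 1.28) and the edgeR Padj 0.156, so the difference did not pass. Mural cell markers (median 0.00) summed to 210 to 244 CPM in controls and 220 to 246 CPM in exposed rats, with 0 of 5 called by edgeR or DESeq2 and 1 at an unadjusted p under 0.05 (higher). The pericyte genes Pdgfrb and Cspg4 had log2-Fold changes of 0.00 and 0.23.

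Neither pannexin gene passed. Panx1 was at 10.3, 11.5 and 9.55 CPM in controls and 8.62, 10.1 and 9.14 CPM in exposed rats, with overlapping groups and a log2-Fold change of -0.17 (SE 0.16, 95% interval -0.52 to 0.18, edgeR Padj 0.492). Panx2, best known from neurons, was at 11.6, 12.8 and 10.6 CPM in controls and 10.3, 13.2 and 16.5 CPM in exposed rats. The exposed rats spanned the controls on both sides. Its log2-Fold change was 0.19 (SE 0.18, 95% interval -0.21 to 0.60, edgeR Padj 0.505), and it was 9e-04 without exposed rat 3.

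**Figure D4:**
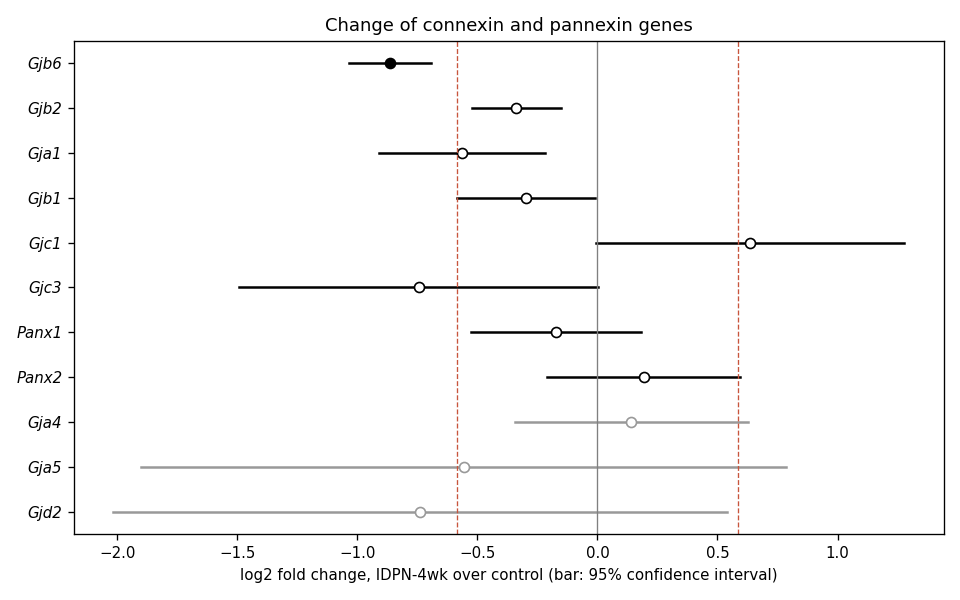
Log2-Fold change (IDPN-4wk over control) with its 95% interval for the 8 genes and, in grey, for the connexin genes Gja4, Gja5 and Gjd2; filled symbols were called and open ones were not, and dashed lines mark a fold change of 1.5. Gjb6 is the filled symbol, at -0.86, and Gja1, at -0.57, lies next to the dashed line.

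As a group, 6 of the 8 genes had a negative and 2 a positive log2-Fold change, with a median of -0.32 against 0.02 over all 14352 tested genes. Lower calls numbered 1 of 8, against 6.62% of all tested genes. Higher calls numbered 0 of 8 by edgeR and by DESeq2, with 0 higher at an unadjusted p under 0.05, against 3.09% of all tested genes. By the adjusted p alone, 3 of 8 were lower (Gjb6, Gjb2 and Gja1), against 11.5% of tested genes. The groups did not overlap in the lower direction for 4 of 8 (Gja1, Gjb2, Gjb6 and Gjc3), against 19.3%, and in the higher direction for 1 of 8 (Gjc1), against 18.5%. With library size as the only scaling the median of all genes moved to 0.13, and each of the 8 genes kept its sign under every scaling tried.

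**Figure D5:**
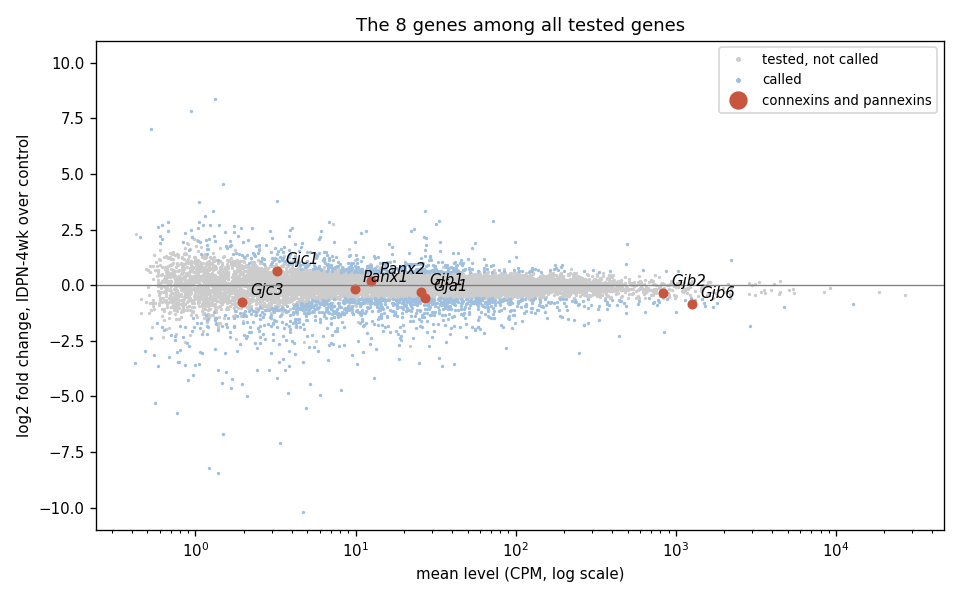
Log2-Fold change (IDPN-4wk over control) against mean level (CPM, log axis) for the 14352 tested genes, called genes in blue and the 8 connexin and pannexin genes in red. Gjb6 and Gjb2 lie near the high end of the level axis, and the other 6 lie between 1 and 100 CPM.

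Of 15 further connexin and pannexin genes, 14 were in the table, 10 had a count in at least 1 library and 4 were tested, with 0 called by edgeR or DESeq2 and 0 at an unadjusted p under 0.05. Gja4, an endothelial connexin gene with 93 to 168 counts per library, was at 7.67 ± 1.36 and 8.48 ± 2.02 CPM (SD, n = 3 each; log2-Fold change 0.14, edgeR Padj 0.694), and Gja5, also of vessels, differed by -0.56 on the log2 scale (edgeR Padj 0.566). Gjd2, of neuronal electrical synapses, had 17, 9 and 10 counts in controls and 13, 5 and 5 in exposed rats (log2-Fold change -0.74, edgeR Padj 0.413). Gja3, Gja10, Gjd3 and Gjd4 had at most 10 counts in any library and were not tested. Gjb5, Gje1 and Panx3 had 0 counts in all libraries, which allows up to 0.155 to 0.216 CPM per library for counting error only.

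Gene groups that work with these channels were examined next. Of 12 gap junction partner genes, the log2-Fold change was negative for 5 and positive for 7 (median 0.04), with 2 lower and 4 higher at an unadjusted p under 0.05. Nov, which encodes the connexin 43 binding matricellular protein CCN3, was called lower, at 189 ± 36.5 CPM in controls and 98.3 ± 12.97 CPM in IDPN-4wk (SD, n = 3 each). Its log2-Fold change of -0.94 (SE 0.14) had an edgeR Padj of 0.00105. Nedd4, the partner highest in CPM and a ubiquitin ligase that acts on connexin 43, was at 899 and 916 CPM (0.03) and was not called. Higher at an edgeR Padj under 0.05 but below the fold threshold were Tjp3, a junctional scaffold gene (0.55, Padj 0.00342), Dbn1, which encodes the actin-binding drebrin (0.41, Padj 0.0229), and Ubqln4, a ubiquilin gene (0.35, Padj 0.0180), each without overlap between groups. Of 7 other tested large-pore channel genes (median log2-Fold change -0.09), 0 were called by edgeR or DESeq2 and 2 had an unadjusted p under 0.05, both lower. The highest in CPM were the volume-regulated channel subunit genes Lrrc8d (181 and 163 CPM, log2-Fold change -0.15) and Lrrc8b (146 and 116 CPM, -0.33, edgeR Padj 0.0245 with a fold below the threshold).

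Purinergic genes bear on connexin and pannexin hemichannels because these release ATP. Of 20 tested, 14 had a negative and 6 a positive log2-Fold change (median -0.05), with 3 lower and 2 higher at an unadjusted p under 0.05. P2rx6, an ATP-gated channel subunit gene, was called lower, at 11.4 ± 2.11 CPM in controls and 4.62 ± 0.803 CPM in exposed rats (SD, n = 3 each). Its log2-Fold change of -1.30 (SE 0.21) had an edgeR Padj of 0.00180. P2rx2, the gene of the list highest in CPM and also an ATP-gated subunit, was at 986 and 962 CPM (-0.04), and P2rx4 at 115 and 107 CPM (-0.11), neither called. P2ry1, an ADP receptor gene, was lower without overlap, at 33.2 CPM in controls and 24.2 CPM in exposed rats (-0.45, edgeR Padj 0.0206), with a fold below the threshold. P2ry6, a nucleotide receptor gene, was called higher by DESeq2 (log2-Fold change 1.36, Padj 0.0385) but not by edgeR (1.36, Padj 0.0637), at 1.29 ± 0.921 CPM in controls and 3.37 ± 0.605 CPM in exposed rats (SD, n = 3 each), without overlap.

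The genes whose pattern over the 6 libraries lay nearest to Gjb6, measured as the root mean square difference of mean-centred log2 CPM among 12578 genes, were Plk2 (0.04), Actl6b (0.04) and Cfap126 (0.04). Plk2 encodes a polo-like kinase, Actl6b a neuronal chromatin remodelling subunit and Cfap126 a ciliary protein. Their log2-Fold changes were -0.81, -0.86 and -0.89. These are descriptions of likeness over 6 libraries that the exposure splits in the same way.

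Markers of the remaining cell types lay around Gjb6 and Gjb2 as follows. Of the 10 HC genes, Otof (-1.19), Kcna10 (-1.53), Calb2 (-2.16), Tmc1 (-1.41), Cdh23 (-1.08) and Myo7a (-0.64) were called lower. Of 7 neuronal genes (median -0.43), Snap25 (-1.44) and Rbfox3 (-1.20) were called lower and the scarce Nefh (2.05) and Prph (2.57) higher, while Nefl (-0.43) and Nefm (-0.52) were not called. Of 8 stromal genes (median -0.26), Lum (-1.42) was called lower and Col1a1 (0.74) higher, with Pdgfra (-0.33) and Dcn (0.13) not called. Endothelial markers (median -0.15) had 0 of 6 called by edgeR or DESeq2 and 2 at an unadjusted p under 0.05, both lower, with Cldn5 at 0.06 and Kdr at -0.28. Melanocyte markers (median -0.37) had 0 of 4 called by either tool and 2 at an unadjusted p under 0.05, both lower, with Pmel at -0.23 and Mlana at -0.51. Of 8 macrophage genes (median 0.03), C1qb (0.71) was called higher and Csf1r (-0.49) was not called.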

How the data were processed

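RNA of the pooled utricles and cristae of each rat was made into a SMART-seq2 library, aligned by the authors with STAR 2.5.3a to Rnor6.0 and quantified with RSEM (1.3.0 in the submitters' processing notes, while the study's methods print another version). The deposited values were expected counts per gene, which the table holds as whole numbers. No sequence letters were read from Rnor6.0; promoter windows came from RefSeq on GRCr8, where 7 of 8 genes matched (Gjc1 did not). Counts were tested with edgeR 4.0.16 in R 4.3.3: filterByExpr (minimum count 10, minimum total 15), TMM scaling, and glmQLFit with glmQLFTest on 3 control and 3 IDPN-4wk libraries, 1 animal each, without covariates. CPM used TMM-scaled library sizes. A gene was called at a Benjamini-Hochberg adjusted p under 0.05 and a fold change over 1.5. Levels are not comparable between genes, since transcript length was not used. Ratios of summed levels were tested by exact permutation over animals.

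The study called genes with DESeq2, run here (1.42.0) as an alternative together with other scalings, no filter, a test against a fold change of 1.5 (glmTreat) and each library left out. On simulated counts for 14352 genes with 200 changed 2-fold, 166 were called, with 15 false calls. Named beside the 8 genes were other family members with a count, called genes and the 2 highest of each list, and the 3 nearest patterns to a called gene; Sox9, Hes1, Sox2, Lfng, Jag1, Tbx18, Pou3f4, Kcne1, Tjp3, Dbn1, Ubqln4, P2ry1, P2ry6 and the untested genes with 0 counts were added after their values were seen. Some genes that this rule names are not reported here. The 8 genes and the lists were chosen with earlier results of these data known. All libraries share 1 batch label. The animal codes of the 3 exposed rats share a prefix that no control has, so anything that prefix stands for cannot be told apart from exposure.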

Additional observations from a re-analysis of the deposited data

How the results depend on the processing

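Gjb6 was called lower under each of the 11 alternatives run, with log2-Fold changes of -0.92 to -0.76 and a largest Padj of 0.0184, in the glmTreat test against a 1.5-fold change. The number of the 8 genes called lower was 1 under DESeq2, both other scalings, no filter and glmTreat, and 1 to 2 with a library left out, the other being Gja1. None was called higher in any of these, by edgeR or DESeq2. All genes called numbered 1394, against 453 by glmTreat, which by construction asks for more than a 1.5-fold change, and 1085 to 1581 with a library left out. No direction was reversed among the 8 genes or the ratios. Summed connexins ranged from -0.68 to -0.60 and the Gjb6 to Gjb2 ratio from -0.62 to -0.43 with a library left out, where the smallest exact p is above 0.05. No paired analysis was run, since the groups held different animals and the labels pair no exposed rat with a control. Depth limits Gjc1 and Gjc3, which had 23 to 66 counts per library, and 3 animals per group limit all tests.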
